A study of Arabidopsis thaliana with 4 samples.

Results

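Iron uptake, transport and storage were followed through 10 genes in floral buds and seedlings of Arabidopsis thaliana Col-0. The genes were IRT1 (AT4G19690), FRO2 (AT1G01580), AHA2 (AT4G30190), FIT (AT2G28160), NAS1 (AT5G04950), NAS4 (AT1G56430), OPT3 (AT4G16370), FER1 (AT5G01600), FER3 (AT3G56090) and FER4 (AT2G40300). They were picked by locus for their known roles in iron metabolism, and all 10 were found among the 24750 genes listed. Native polyadenylated RNA was read by nanopore direct RNA sequencing (DRS), without reverse transcription into the sequenced strand and without PCR, in 2 floral bud libraries and 2 seedling libraries, each from its own biological replicate. Both stages came from wild-type plants started on plates with half-strength medium and sucrose under 16 h light and 8 h dark. The floral buds were unopened and came from plants moved to soil for 3 weeks after the plate, whereas the seedlings were harvested whole at 14 days. Organ, age and growth medium therefore changed together and cannot be told apart.

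Arabidopsis takes up iron by reduction: a proton pump acidifies the soil around the root, a ferric reductase turns ferric into ferrous iron, and a transporter carries the ferrous ion into root epidermal cells. This machinery is switched on in iron-starved roots by the bHLH factor FIT together with partner bHLH proteins. Inside the plant, iron moves bound to chelators such as nicotianamine, is loaded into the phloem, and surplus iron is stored in plastids inside ferritin shells, whose genes are known to be repressed when iron is scarce and induced when it is plentiful.

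Of the 10 genes, 4 were lower in floral buds and 0 were higher by the limits used throughout. A differentially expressed gene (DEG) had a false discovery rate (FDR, Benjamini-Hochberg over all genes tested) under 0.05 in edgeR's quasi-likelihood test and a fold change above 2. Over the 18647 genes tested, 19.8% were DEGs, 10.3% higher and 9.52% lower in floral buds. The DEGs were the proton pump gene AHA2, the nicotianamine synthase genes NAS1 and NAS4, and the oligopeptide transporter gene OPT3. The ferritin genes FER1, FER3 and FER4 had fitted values above 0, each under the fold limit. In normalized CPM the stages did not overlap for 9 of the 10 genes, FIT being the exception, nor for 57.5% of all genes tested. The median log2 fold change, floral buds over seedlings, was -1.12 over the 10 genes and 0.06 over all genes tested. The members were chosen with earlier results of these data known, so their counts are a description.

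The values below are the deposited estimated counts, rounded to whole numbers, and normalized CPM, which is the count scaled to a common library size after upper-quartile adjustment. The libraries held between 579350 and 796873 estimated counts, so that 3 counts, the limit a count of 0 allows, corresponded to 3.74 and 4.24 normalized CPM in the floral bud libraries and to 5.30 and 5.08 in the seedling libraries. These limits cover counting error only. Of the values above 0, 83.7% were not whole, while 98.9% of the sums of a gene over the libraries were whole within 0.001. The values of a gene therefore look like shares of one whole total, and whether libraries were counted independently was not tested. No gene had an estimated variance of its own, so the standard errors (SE) rest on a spread shared by all genes (biological coefficient of variation 14.6%). For one gene taken alone, an exact permutation test of 2 libraries against 2 has 0.33 as its smallest two-sided p.

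Markers set the organs apart. The 5 floral organ genes examined (AP1, AP3, PI, AG and SEP3) summed to 1175 and 1083 normalized CPM in floral buds, against 10.6 and 5.08 in seedlings. The 10 root genes examined summed to 29.9 and 26.8 normalized CPM in floral buds, against 1532 and 1440 in seedlings. Most of the seedling sum came from PYK10 alone, with 1375 and 1298 normalized CPM in seedlings, against 6.23 and 0 in floral buds. Of the 8 root genes tested, 5 were lower in floral buds and 0 higher, set beside 9.52% and 10.3% of all genes tested. At 0 in both floral bud libraries were 7 of the 10 root genes (EXPA7, LRX1, PRP3, EXPA18, CASP1, PHT1;1 and NRT2.1). Of these, LRX1, PRP3, EXPA18, CASP1 and PHT1;1 passed the count filter through the seedling libraries alone, so none could be called higher. Against a floor of 3 counts in each floral bud library, EXPA18 was at least 1.95-fold lower, short of the 2-fold limit. EXPA7, with 2 and 0 counts in seedlings, and NRT2.1, with 0 and 2, were near 0 in seedlings too. PIP2;4, with 15 and 17 counts in floral buds against 7 and 10 in seedlings, and COBL9, with 4 and 2 in floral buds against 4 and 3 in seedlings, were not DEGs. The part of root tissue in the results below was not tested, and in bulk RNA fewer cells of a type and less RNA per cell cannot be told apart. A 0 in these data need not mean an absent transcript, since the photosynthesis gene RBCS1A was listed at 0 in all 4 libraries.

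**Figure D1:**
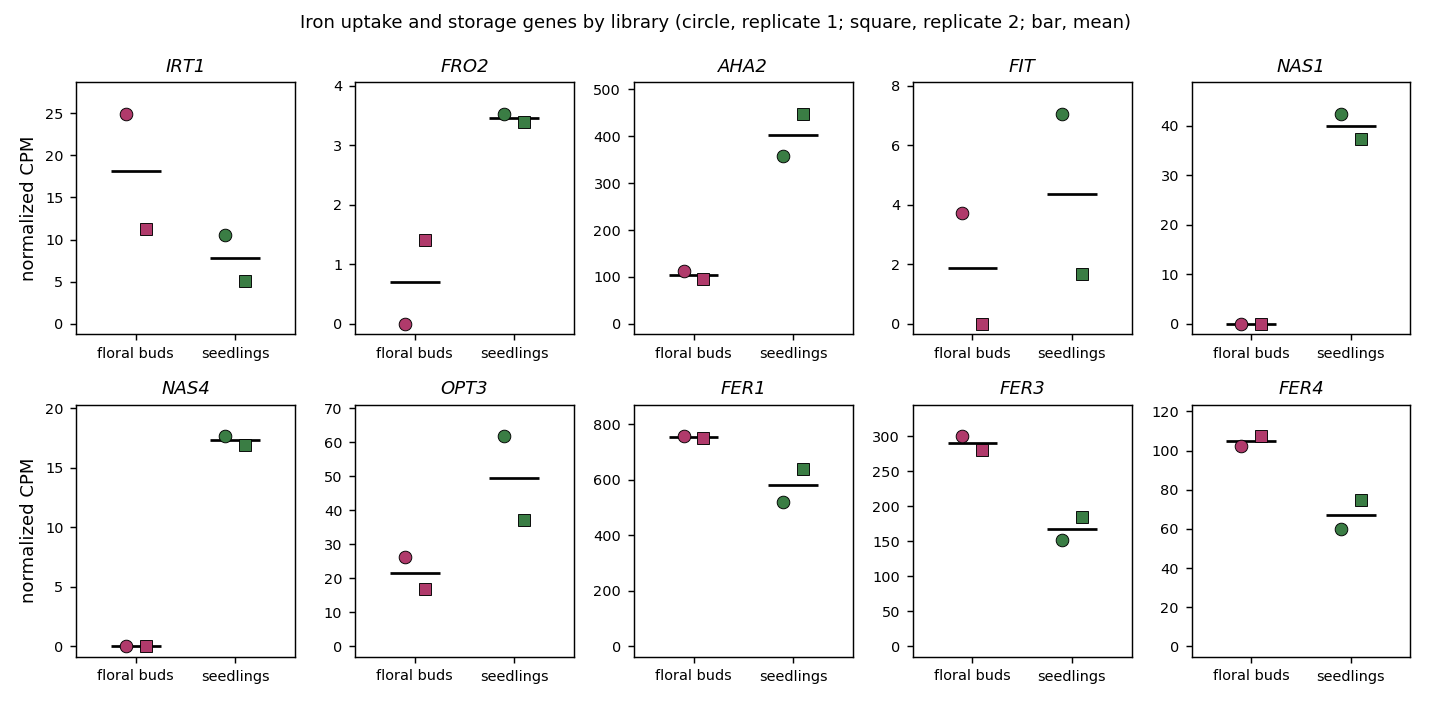
Normalized CPM (vertical axis, a linear scale of its own for each gene) of the 10 iron genes in floral buds (left, red) and seedlings (right, green); circles are replicate 1, squares replicate 2 and bars the mean. NAS1 and NAS4 sat at 0 in both floral bud libraries, AHA2 averaged 104.7 in floral buds and 402 in seedlings, and FIT is the gene whose stages overlap.

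IRT1 encodes the main transporter for ferrous iron at the root surface, and its promoter is known to be active in flowers too. It lies on the plus strand of chromosome 4 (chr4:10707344-10709015, TAIR10.1) with transcripts of up to 3 exons. It had 20 and 8 counts in floral buds, against 6 and 3 in seedlings, or 24.9 and 11.3 normalized CPM in floral buds, against 10.6 and 5.08 in seedlings. Both floral bud libraries were above both seedling libraries, but the lower floral bud value and the higher seedling value nearly met. The log2 fold change was 1.22 ± 0.63 (SE, n = 2 each) with a 95% interval of -0.03 to 2.46, and IRT1 was not a DEG (edgeR FDR = 0.159). Leaving out one library gave log2 fold changes of 0.53 (without floral buds replicate 1) to 1.81 (without seedlings replicate 1), none of them called. IRT1 was thus counted in organs without roots, and its level there was not separated from that of whole seedlings at this depth.

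FRO2, the ferric chelate reductase of the root epidermis, was at the edge of detection. The gene is on the plus strand of chromosome 1 (chr1:208995-213082), with 8 exons. Its estimated counts were 0 and 0.778 in floral buds, against 1.61 and 1.61 in seedlings, and summed to 4 over the libraries; it entered the test only because rounding made the sum 5. No library exceeded 3 counts, so no fold change is given, and FRO2 did not pass the test (edgeR FDR = 0.426). The transporter and the reductase that work in series at the root surface thus had unequal levels in floral buds. Per kilobase of the longest transcript, IRT1 averaged 12.2 and FRO2 0.248 normalized CPM in floral buds, against 5.30 for IRT1 and 1.21 for FRO2 in seedlings, and IRT1 was also the higher of the pair in mean normalized CPM without division by length.

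AHA2 encodes a plasma membrane H+-ATPase, a major proton pump of roots that acidifies the soil around them. It lies on the minus strand of chromosome 4 (chr4:14770395-14776247), with 14 or 15 exons. Its counts were 91 and 68 in floral buds, against 202 and 264 in seedlings. Normalized CPM was 113 and 96.0 in floral buds, against 357 and 447 in seedlings, with no overlap and a wide gap. AHA2 was 3.83-fold lower in floral buds (log2 fold change -1.94 ± 0.20 SE, n = 2 each, edgeR FDR = 5.3e-21). It remained a DEG in all 11 alternative analyses, with log2 fold changes of -2.10 to -1.77.

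AHA1 (AT2G18960), the closest relative of AHA2 and a pump of shoots and roots alike, was set beside it. It had 170 and 155 counts in floral buds, against 179 and 164 in seedlings. Normalized CPM of AHA1 was 212 and 219 in floral buds, against 316 and 278 in seedlings, with no overlap. AHA1 was thus lower in floral buds, as AHA2 was, but was not a DEG. Its log2 fold change was -0.46 ± 0.19 (SE, n = 2 each, edgeR FDR = 0.0529), with a 95% interval of -0.83 to -0.10. Of the counts of the pair, AHA2 took 34.9% and 30.5% in floral buds, against 53.0% and 61.7% in seedlings. The 95% Wilson intervals ran from 24.8% to 40.8% over the floral bud libraries and from 48.0% to 66.2% over the seedling libraries, so AHA1 held the larger share in both floral bud libraries. The difference between the fold changes of the genes was not tested. AHA2 shares 89.1% of its bases with AHA1 where their transcripts align. No transcript of a member was matched by another gene at 95% identity or more over 80% or more of its length.

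FIT, the bHLH factor that drives IRT1 and FRO2 in iron-starved roots, is on the plus strand of chromosome 2 (chr2:12004658-12006276). It had 3 and 0 counts in floral buds, against 4 and 1 in seedlings, and the stages overlapped. The ratio of the summed counts, scaled for depth, was 0.459 with an exact 95% counting interval of 0.0713 to 2.36, and FIT did not pass the test (edgeR FDR = 0.634). Its partner genes BHLH38, BHLH39 and BHLH100 were listed at 0 in all 4 libraries. IRT2, FRO5 and BHLH101 were not analysed here. The partner genes are known to be strongly induced by iron starvation in roots, and the labels name no iron treatment for either stage.

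NAS1 and NAS4 encode nicotianamine synthases, which join S-adenosylmethionine molecules into the chelator nicotianamine. NAS1 is a single-exon gene on the minus strand of chromosome 5 (chr5:1457641-1459039) and NAS4 a single-exon gene on the plus strand of chromosome 1 (chr1:21136835-21138277). NAS1 had 0 and 0 counts in floral buds, against 24 and 22 in seedlings, or 42.4 and 37.3 normalized CPM in seedlings. NAS4 had 0 and 0 counts in floral buds, against 10 and 10 in seedlings, or 17.7 and 16.9 normalized CPM in seedlings. Both genes were therefore counted in every seedling library and in no floral bud library. Against a floor of 3 counts in each floral bud library, NAS1 was at least 9.99-fold lower in floral buds (edgeR FDR = 6.01e-12) and NAS4 at least 4.34-fold lower (edgeR FDR = 2.04e-05). Both passed the count filter through the seedling libraries alone. Each was a DEG in the 10 alternatives that tested it.

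The other synthase genes of the family had few counts in either stage. NAS2 (AT5G56080) had 0 and 0 counts in floral buds, against 0 and 2 in seedlings, and was not tested. NAS3 (AT1G09240) had 2 and 2 counts in floral buds, against 2 and 6 in seedlings, with a depth-scaled ratio of 0.383 and an exact 95% counting interval of 0.0844 to 1.43 (edgeR FDR = 0.42). All nicotianamine synthase counts in floral buds thus came from NAS3.

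OPT3 encodes a phloem transporter that loads iron and takes part in signalling the iron status of the shoot to the root. It is on the minus strand of chromosome 4 (chr4:9247302-9250343), with 5 exons. OPT3 had 21 and 12 counts in floral buds, against 35 and 22 in seedlings, or 26.2 and 16.9 normalized CPM in floral buds, against 61.8 and 37.3 in seedlings. The stages did not overlap, but the seedling libraries lay further apart than the gap between the stages. OPT3 was 2.26-fold lower in floral buds (log2 fold change -1.18 ± 0.40 SE, n = 2 each, edgeR FDR = 0.0175). The call was lost without floral buds replicate 2 (log2 fold change -0.94, FDR = 0.164) and without seedlings replicate 1 (-0.78, FDR = 0.329), and also with DESeq2 (FDR = 0.25) and limma-voom (FDR = 0.123).

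**Figure D2:**
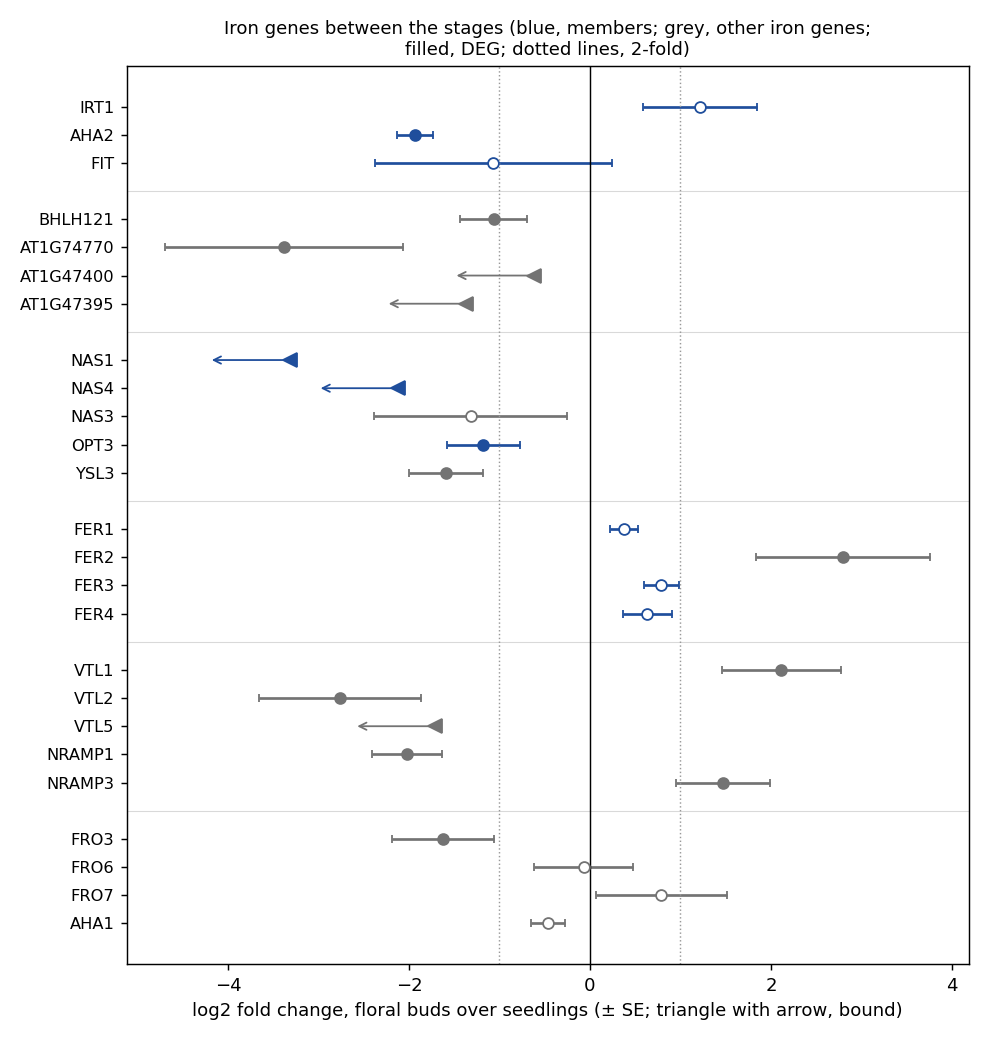
Log2 fold change of iron genes, floral buds over seedlings, on the horizontal axis, with members in blue and other iron genes in grey. Bars are the SE derived from the edgeR test, filled symbols are DEGs and dotted lines mark a fold change of 2. Triangles with arrows are bounds for genes at 0 in both floral bud libraries, such as NAS1 (at least 9.99-fold lower) and NAS4 (at least 4.34-fold lower); the ferritin genes are the group of which every member lies right of 0.

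FER1 had the highest level of the 10 genes in both stages, with FER3 next in floral buds. FER1, FER3 and FER4 encode plastid ferritins, and each gene has 8 exons on the minus strand, of chromosome 5 (chr5:227953-230051), chromosome 3 (chr3:20813904-20816035) and chromosome 2 (chr2:16831109-16833294) in that order. The bases upstream of the 3 genes are shown because FER3 and FER4 share strings there that FER1 lacks. Each stretch below runs from 100 to 31 bases before the annotated gene start, 5′ to 3′ on the gene's own strand, from the RefSeq TAIR10.1 genome. Capitals mark CACGTG (the G-box, a palindrome bound by bHLH and bZIP factors) and the longest run of bases that the FER3 and FER4 windows share. OPT3 is shown as the remaining member with a G-box.
FER3 (chr3:20816066-20816135, minus strand): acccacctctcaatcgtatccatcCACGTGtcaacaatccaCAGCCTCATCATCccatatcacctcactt
FER4 (chr2:16833325-16833394, minus strand): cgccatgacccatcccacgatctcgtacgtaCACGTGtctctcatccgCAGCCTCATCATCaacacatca
FER1 (chr5:230082-230151, minus strand): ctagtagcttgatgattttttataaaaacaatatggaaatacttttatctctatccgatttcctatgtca
OPT3 (chr4:9250374-9250443, minus strand): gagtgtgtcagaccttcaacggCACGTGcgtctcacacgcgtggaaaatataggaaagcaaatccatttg

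In windows from 250 bases before to 50 bases after the gene start, searched on both strands, CACGTG was found in 3 of the 10 members (OPT3, FER3 and FER4) and in 8.54% of the 22735 windows of listed genes. The shared run of FER3 and FER4 was 13 bases long (CAGCCTCATCATC) and was found in 2 of the 22735 windows, those of FER3 and FER4. Because the run was picked from these 2 windows, its presence in both was fixed beforehand. The transcripts of FER3 and FER4 share 80.4% of their bases where they align. In both genes the run stood a few bases downstream of the G-box, without overlapping it. FER1 held neither string in its window, and the window of FER2 (AT3G11050), the ferritin gene that is not a member, held a G-box 31 bases after the gene start. These matches describe letters only; binding was not measured.

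FER1 had 607 and 531 counts in floral buds, against 295 and 377 in seedlings. Its normalized CPM was 756 and 750 in floral buds, against 521 and 639 in seedlings, so the floral bud libraries nearly coincided and both seedling libraries lay below them. The log2 fold change was 0.38 ± 0.15 (SE, n = 2 each), the FDR was just above its limit (edgeR FDR = 0.05003), and the fold change was under 2. The span of FER1 overlaps a noncoding gene on the opposite strand, AT5G01595, over 1334 bases. That gene was not analysed here. The published counting code joins reads to genes by overlap without strand, so reads of the pair cannot be told apart.

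FER3 had 241 and 199 counts in floral buds, against 86 and 109 in seedlings, or 300.3 and 281 normalized CPM in floral buds, against 152 and 185 in seedlings. The stages were well apart. The log2 fold change was 0.79 ± 0.19 (SE, n = 2 each) and passed the FDR limit (edgeR FDR = 0.000443) but not the limit on fold change, in the main analysis as in all 11 alternatives. FER4 had 82 and 76 counts in floral buds, against 34 and 44 in seedlings, or 102 and 107 normalized CPM in floral buds, against 60.0 and 74.6 in seedlings. Both floral bud libraries were above both seedling libraries. FER4 passed neither limit in the main analysis (log2 fold change 0.63 ± 0.27 SE, n = 2 each, edgeR FDR = 0.0746). Its edgeR FDR was 0.0281 when scaled by library size alone and 0.0414 with at least 10 counts in each library. With DESeq2 the FDR of FER4 was 0.41 and with limma-voom 0.102. FER4 overlaps AT2G40290, a gene on the same strand, over 118 bases.

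FER2 (AT3G11050), the ferritin gene known from seeds, had 13 and 7 counts in floral buds, against 2 and 0 in seedlings. It was the one ferritin DEG (log2 fold change 2.80 ± 0.96 SE, n = 2 each, edgeR FDR = 0.0191), with a depth-scaled count ratio of 7.66 and an exact 95% counting interval of 1.86 to 67.6. The call was lost in 6 of 10 alternatives, among them leaving out floral buds replicate 1 or seedlings replicate 2. It remained a minor form, at 1.38% and 0.861% of ferritin counts in floral buds, against 0.48% and 0% in seedlings, where the upper Wilson bound of the library at 0% was 0.72%.

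The 4 ferritin genes together summed to 1175 and 1148 normalized CPM in floral buds, against 736 and 898 in seedlings. FER1 took 64.4% and 65.3% of the ferritin counts in floral buds, against 70.7% and 71.1% in seedlings. FER3 took 25.6% and 24.5% in floral buds, against 20.6% and 20.6% in seedlings, and FER4 between 8.15% and 9.35% in every library. FER1 was thus the leading ferritin in both stages, with a somewhat smaller share in floral buds. The Wilson intervals of the stages overlapped for all 3 of these genes, and the shares were not tested.

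**Figure D3:**
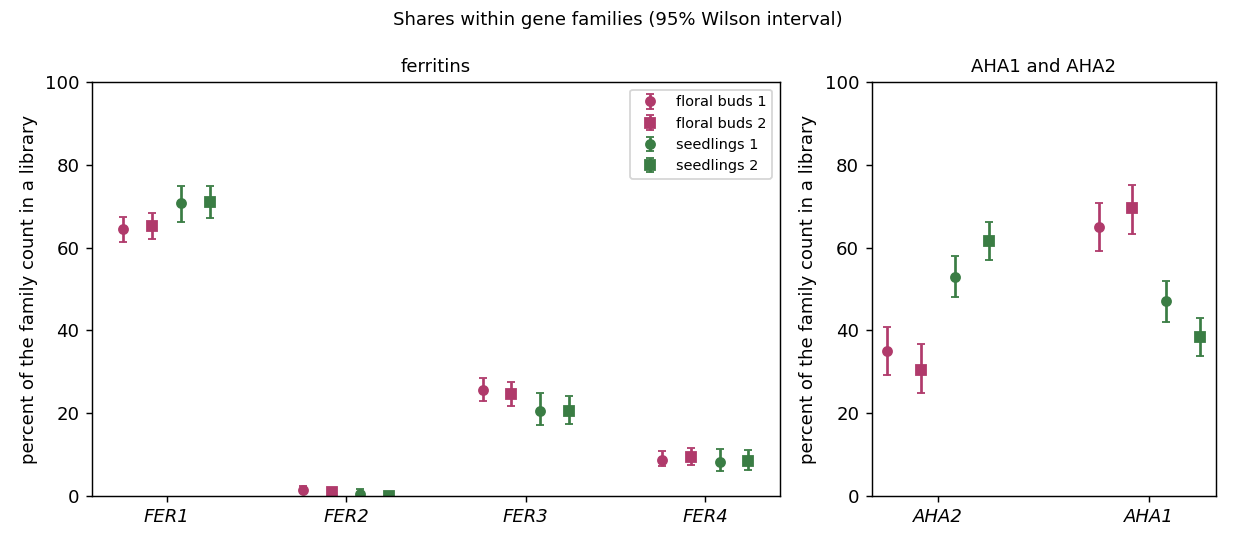
Percent of a family's counts in each library (vertical axis) taken by each ferritin gene (left panel) and by AHA2 and AHA1 (right panel); red symbols are floral buds, green symbols seedlings and bars 95% Wilson intervals. FER1 held 64.4% and 65.3% of ferritin counts in floral buds, against 70.7% and 71.1% in seedlings, whereas AHA2 held 34.9% and 30.5% of its pair in floral buds and 53.0% and 61.7% in seedlings.

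The order of the 10 genes depended on whether transcript length was divided out. In direct RNA sequencing a read comes from one RNA molecule, so counts need not grow with length as they do for fragmented RNA, and dividing by length lowers long transcripts such as those of AHA2 and OPT3. As mean normalized CPM without the division, the floral bud levels were 753 for FER1, 291 for FER3, 104.7 for FER4 and for AHA2, 21.6 for OPT3, 18.1 for IRT1, 1.87 for FIT, 0.706 for FRO2 and 0 for NAS1 and NAS4. FER4 and AHA2 overlapped between libraries, as did OPT3 and IRT1, and FIT, FRO2 and the NAS genes. In seedlings the means were 580 for FER1, 402 for AHA2, 168 for FER3, 67.3 for FER4 and 49.5 for OPT3. They were 39.8 for NAS1, 17.3 for NAS4, 7.84 for IRT1, 4.38 for FIT and 3.46 for FRO2. The seedling libraries of FER4 (60.0 and 74.6) and OPT3 (61.8 and 37.3) overlapped. OPT3 and NAS1 overlapped as well, as did IRT1 and FIT, and FIT and FRO2.

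Per kilobase of the longest transcript, the floral bud levels were 530 for FER1, 228 for FER3, 83.7 for FER4, 29.1 for AHA2, 12.2 for IRT1 and 7.99 for OPT3, so that AHA2 came below FER4, and IRT1 came before OPT3 with their libraries overlapping. In seedlings the same measure was 408 for FER1, 132 for FER3, 112 for AHA2, 53.7 for FER4, 28.5 for NAS1 and 18.4 for OPT3, which put FER3 before AHA2, with overlap, and NAS1 above OPT3. FER1 led in both stages on both scales.

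The genes with profiles most like IRT1 over the 4 libraries, by Euclidean distance of log2(normalized CPM + 1) among the 18647 genes tested, were FAR1, a transcription factor of phytochrome A signalling (AT4G15090, distance 0.266), RR14, a response regulator of cytokinin signalling (AT2G01760, 0.414), and AT3G20890 (0.463). Those most like FER1 were SAMDC, an S-adenosylmethionine decarboxylase gene of polyamine synthesis (AT3G02470, 0.117), AT4G18100 (0.295) and AT3G09200 (0.295). With 4 libraries such likeness reflects level and stage only.

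The rest of the pathway was examined in a list of 59 iron genes that includes the 10 members. Of the 49 others, 43 were listed, 34 were tested, 3 were higher in floral buds (8.82%) and 9 were lower (26.5%), set beside 10.3% and 9.52% of all genes tested. Their median log2 fold change was -0.38. The lower genes were regulators, a long-distance carrier, membrane transporters and a ferric reductase, and the higher ones a ferritin and transporters of the vacuole group.

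Among the 12 other regulators tested, 4 were lower in floral buds and 0 higher. BHLH121 (AT3G19860), a bHLH factor upstream of FIT, had 21 and 20 counts in floral buds, against 23 and 43 in seedlings (log2 fold change -1.06 ± 0.37 SE, n = 2 each, edgeR FDR = 0.0212), and was called in 4 of 11 alternatives. AT1G74770, annotated as a zinc ion binding protein, had 1 and 0 counts in floral buds, against 4 and 6 in seedlings (edgeR FDR = 0.0432). The neighbouring genes AT1G47400 and AT1G47395 have no name in the RefSeq annotation used here. AT1G47400 had 0 and 0 counts in floral buds, against 5 and 2 in seedlings (at least 1.53-fold lower, edgeR FDR = 0.0418). AT1G47395 had 0 and 0 counts in floral buds, against 3 and 9 in seedlings (at least 2.58-fold lower, edgeR FDR = 0.00283). Like NAS1 and NAS4, both passed the count filter through the seedling libraries alone, and the bound for AT1G47400 does not reach the 2-fold limit that its fitted value passed. AT1G74770 overlaps AT1G74750, a gene on the opposite strand, over 471 bases. These are low counts, and AT1G74770 was called in 3 of 10 alternatives, AT1G47400 in 2 of 9 and AT1G47395 in 7 of 9. BHLH121 and AT1G47400 were not DEGs without floral buds replicate 1, floral buds replicate 2 or seedlings replicate 2, nor AT1G74770 without floral buds replicate 2 or either seedling library. Of the 3 coumarin genes tested, 0 were DEGs.

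Among the 6 other genes of nicotianamine synthesis and long-distance transport that were tested, YSL3 was the one DEG. YSL3 (AT5G53550), a carrier of metal-nicotianamine complexes, had 13 and 14 counts in floral buds, against 26 and 37 in seedlings. It was lower in floral buds (log2 fold change -1.59 ± 0.41 SE, n = 2 each, edgeR FDR = 0.000787) and was called in 10 of 11 alternatives, DESeq2 being the exception. With the members included, 9 genes of the group were tested, and 7 had fitted values below 0. The synthases NAS1 and NAS4 and the carriers OPT3 and YSL3 were DEGs, all lower in floral buds, and 5 genes were not DEGs. The call of OPT3 was lost in 4 of 11 alternatives.

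The list's group of transporters of vacuole and organelle membranes went both ways, with 2 of 9 tested higher and 3 lower in floral buds. NRAMP1 (AT1G80830) was placed in this group beside its relatives NRAMP3 and NRAMP4, although it is known mainly as a manganese and iron carrier of the plasma membrane in roots. It had 19 and 7 counts in floral buds, against 51 and 30 in seedlings (log2 fold change -2.03 ± 0.39 SE, n = 2 each, edgeR FDR = 2.36e-06). The vacuolar iron transporter-like genes split. VTL1 (AT1G21140) had 19 and 16 counts in floral buds, against 5 and 1 in seedlings (edgeR FDR = 0.0077), VTL2 (AT1G76800) had 0 and 3 in floral buds, against 7 and 10 in seedlings (FDR = 0.0117), and VTL5 (AT3G25190) had 0 and 0 in floral buds, against 10 and 5 in seedlings (at least 3.28-fold lower, FDR = 0.000439). VTL5 also passed the count filter through the seedling libraries alone. NRAMP3 (AT2G23150), which exports iron from the vacuole, had 29 and 19 counts in floral buds, against 9 and 4 in seedlings (log2 fold change 1.47 ± 0.52 SE, n = 2 each, edgeR FDR = 0.0228). VTL1 and VTL2 were called in 6 and NRAMP3 in 5 of 10 alternatives, NRAMP1 and VTL5 in 9 of 10, and VTL5 was not a DEG without seedlings replicate 1. Without floral buds replicate 1 or without seedlings replicate 2, none of VTL1, VTL2 and NRAMP3 was called.

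The ferric reductases other than FRO2 included 1 DEG. FRO3 (AT1G23020), the mitochondrial reductase, had 7 and 6 counts in floral buds, against 16 and 15 in seedlings (log2 fold change -1.62 ± 0.56 SE, n = 2 each, edgeR FDR = 0.0208), and was called in 5 of 10 alternatives, in none of those that left out a library. FRO4 (AT5G23980) had 0 and 0 counts in floral buds, against 2 and 2 in seedlings, and was not tested. FRO6 (AT5G49730) had 15 and 10 counts in floral buds, against 12 and 8 in seedlings (edgeR FDR = 0.956), and FRO7 (AT5G49740), the chloroplast reductase, had 4 and 14 in floral buds, against 4 and 4 in seedlings (FDR = 0.496).

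**Figure D4:**
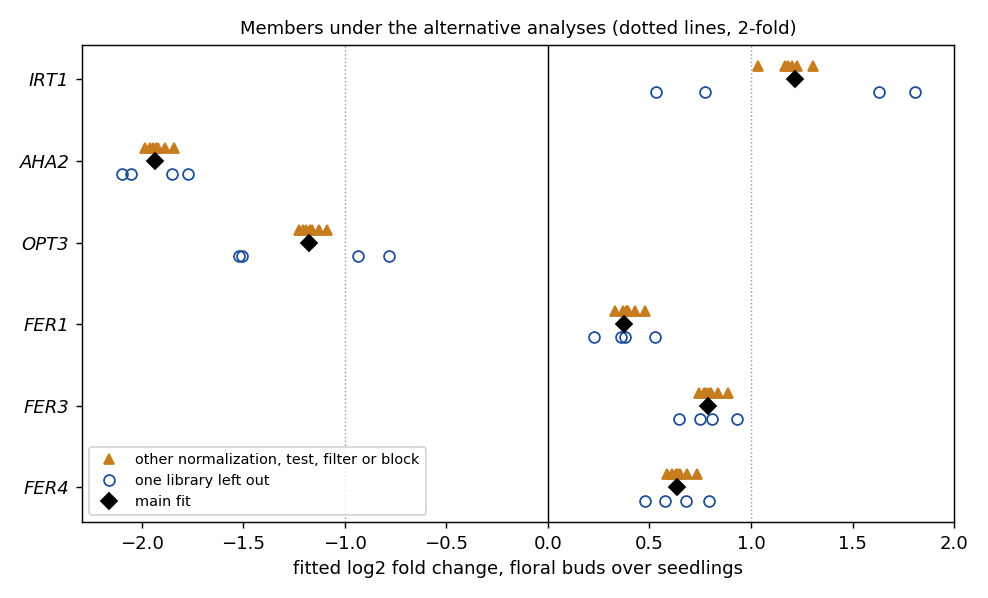
Fitted log2 fold change, floral buds over seedlings (horizontal axis), of 6 members under the main analysis (diamonds), under other normalizations, tests, filters or the replicate block (triangles) and with one library left out (circles); dotted lines mark a fold change of 2. AHA2 stayed between -2.10 and -1.77, while OPT3 came inside the 2-fold line in the fits without floral buds replicate 2 (-0.94) and without seedlings replicate 1 (-0.78).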

How the data were processed

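DRS of poly(A) RNA was analysed from 2 floral bud and 2 seedling libraries, grouped by their titles. The authors called bases with Guppy, mapped reads with Minimap2 (version 2.17 per the labels) to TAIR10 and assigned them to genes with TrackCluster; the deposited values are estimated counts per gene, not normalized. Reads were joined to genes by overlap, so overlapping genes are uncertain. The 3 single-library tables used repeat columns of the combined table.

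Estimated counts were rounded and filtered at 5 counts in all. The quasi-likelihood test of edgeR 4.0.16 was used in R 4.3.3, with factors from the upper quartile and stage as the only term. DEGs had FDR under 0.05 and a fold change above 2. The p-values rest on a spread between libraries that is shared by all genes, not on a spread of each gene's own. The fits were also run on simulated data with independent counts. That setting differs from deposited values that look like shares of one total, so it cannot vouch for the FDRs here. Alternatives used DESeq2 1.42.0, limma 3.58.1, other normalizations and filters, a replicate block, and leaving out each library.

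Gene models and sequences came from RefSeq TAIR10.1, in which all 59 listed iron genes were matched, and copies were sought with blastn 2.17.0. The genes named were all members, their paralogs, DEGs of the iron list, and the 3 nearest profiles of IRT1 and FER1. Members and lists were chosen with earlier results of these data known.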

Additional observations from a re-analysis of the deposited data

How the results depend on the processing

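No fold change of a member turned its direction in any alternative. The 4 member calls became 2 with at least 10 counts in each library, where 5 members were tested, 3 with DESeq2 or limma-voom, and 3 to 4 when one library was left out. The 16 calls of the iron list became 5 with DESeq2, 7 with limma-voom, 4 with at least 10 counts in each library, and 7 to 11 when one library was left out (7 without seedlings replicate 2). The 3 higher calls of the list were lost with DESeq2 and with limma-voom, and the genes were not tested with at least 10 counts in each library. Over all genes tested, the 3687 DEGs became 1965 with DESeq2, 1037 with at least 10 counts in each library (fewer genes were tested) and 2906 to 3307 when one library was left out. The other causes were not tested.

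Deviations of same-numbered libraries correlated at -0.05 over 6531 genes, so no pairing by replicate number was seen. The values of a gene look like shares of one total, so this check cannot settle whether the libraries were paired. With the replicate number as a block, 3095 genes, 4 members and 12 genes of the iron list were called. Low counts limit IRT1, FIT, FRO2 and the NAS paralogs, for which only large differences were detectable.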
